A study of Rattus norvegicus with 6 samples.

Results

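The genes described here are 44 genes of the secretory pathway and of the unfolded protein response, taken as a named list of folding, export, degradation and stress genes. They were found on the array through every probe set that the platform annotation maps to a single symbol of the list. Of the 44 genes, 42 were measured, by 61 probe sets, among 14217 genes and 31099 probe sets in all. Ern1, which encodes the stress sensor IRE1, and Sec23a, a coat protein of export vesicles, had no such probe set and are not analysed here. A gene with several probe sets was represented by the brightest one, judged by the average of all 6 arrays. This applied to 14 genes, and 28 had 1 probe set. No filter on dim values was used, so all 42 genes were tested.

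RNA of 2 rat cell strains was measured on 6 Affymetrix arrays, 3 of each strain. BDEsp-TDESM, here TDESM, is a clonal cancer-associated fibroblastic strain described in the labels by overexpression of Acta2, smooth muscle actin. BDEsp-TDECC, here TDECC, is a clonal cholangiocarcinoma strain, a cancer of bile duct cells. Both came from orthotopic tumours of Fischer 344 rats, raised by placing spontaneously transformed cholangiocytes (BDEsp cells) into the bile duct of young adult males. The labels give all 6 samples the same gel culture of cells in rat collagen type I and name the same TGF-beta pathway inhibitors, SB 431542 and LY2157299, without saying which cultures received them, so no treatment was compared. Each strain is a single clone. The labels do not state whether replicate arrays used separate cultures or animals, so p-values here cover array-to-array spread only, possibly of technical origin. As in any bulk sample, fewer cells of a type and less RNA per cell cannot be told apart.

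Proteins bound for the cell surface or the matrix enter the endoplasmic reticulum (ER) through the SEC61 channel, are folded and cross-linked there by chaperones and disulfide isomerases, and leave in vesicles coated with COPII. When unfolded proteins build up, the membrane sensors IRE1, PERK and ATF6 start the unfolded protein response, which raises chaperones and degradation enzymes through the transcription factors XBP1, ATF6 and ATF4. Collagens and fibronectin are among the heaviest loads on this route, and fibroblasts are known for a large ER. Much of the response works through RNA splicing, phosphorylation and protein cleavage, which these arrays do not read. The question put to the data was whether the strain that makes matrix carries more mRNA of folding and export genes.

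The labels were checked against markers. The mean of 6 epithelial markers (Krt7, Krt8, Krt18, Krt19, Epcam and Cdh1) was 4.79 to 4.93 on TDESM arrays and 13.5 to 13.8 on TDECC arrays, on the log2 scale. The mean of 6 fibroblast markers, Acta2 and Col1a1 among them, was 12.5 to 12.6 on TDESM arrays and 4.99 to 5.23 on TDECC arrays. Not all were dim in the other strain. Krt7 (8.14) and Krt8 (7.11) in TDESM, and Col3a1 (7.07) and Acta2 (6.61) in TDECC, read above the array medians of all probe sets (5.80 to 5.86). The rest of each list read below them. Plasma cells have an expanded ER, and of 8 plasma and B cell markers 5 were measured; their strain means lay between 2.94 and 4.71 in TDESM and between 3.07 and 5.08 in TDECC, and 0 of the 5 passed the threshold given below. None of 8 leukocyte markers passed, and 1 of 6 hepatocyte and 1 of 4 endothelial markers measured was lower in TDESM. The leukocyte markers were not all dim: Cd14 read 8.73 in TDESM and 10.39 in TDECC, the highest of that list in both strains. Arrays of TDESM correlated at 0.995 to 0.998 across genes and arrays of TDECC at 0.968 to 0.975, so TDECC arrays differed more among themselves. The 3' minus 5' difference of the Gapdh control probe sets was 0.04 to 0.08 in TDESM and 0.01 to 0.08 in TDECC. That of the beta-actin control probe sets was 0.72 to 0.99 and 0.77 to 1.46.

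Most of the 42 measured genes stood higher in TDESM. With limma and a Benjamini-Hochberg adjusted p of 0.05 over all 14217 genes, 28 of the 42 (66.7%) were higher in TDESM, where 22.1% of all genes were. Another 3 (7.14%) were lower, where 20.6% of all genes were, and 11 did not pass. In either direction 42.7% of all genes passed. The listed genes were bright, with array medians of 9.68 to 11.27 against 5.80 to 5.86 for all probe sets. Without the dimmest 33.3% of genes the 28 and 3 calls stayed. Then 2646 genes were higher and 2623 lower, against 3135 and 2930 of all genes, so both shares are larger among the brighter genes. The median log2 difference, TDESM minus TDECC, was 0.84 for the listed genes and 0.00 for all genes. At least a 2-fold difference besides the adjusted p was met by 15 genes higher in TDESM, against 13.4% of all genes, and by 1 lower, against 12.1%. Every TDESM array was above every TDECC array for 32 genes, as for 27.3% of all genes, and below for 3, as for 26.4%. The strains overlapped for 7 genes. An exact two-sided permutation test of a single gene cannot fall below p = 0.1 with 3 arrays against 3.

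Directions below are relative to the median gene, because RMA brings all arrays to a common distribution. The probe sets of the added poly-A control transcripts had medians of 8.11, 8.22 and 8.73 on TDESM arrays and 6.94, 7.13 and 7.17 on TDECC arrays. Centred on these controls, the median gene differed by -1.27 and the median of the listed genes by -0.44. On that scale 6.37% of all genes were higher in TDESM and 79.4% lower, 7 of the 42 listed genes were higher and 14 lower, and 24 turned sign, namely the genes between 0 and 1.27 in the plot of differences. The genes at 1.27 and above kept their sign, from Creb3l1 down to Trib3. Unequal amounts of added control and an unequal share of mRNA in the total RNA cannot be told apart here. Under a centring on 15 housekeeping genes the median gene moved to 0.14. Of these 15, Snrpd3 (0.90), Gusb (0.89), Vps29 (0.70) and Ywhaz (0.41) were themselves higher in TDESM as deposited. Polr2a (-1.09), Sdha (-0.59) and Gpi (-0.53) were lower, and the rest did not pass. That scale is thus not shown to be neutral.

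**Figure D1:**
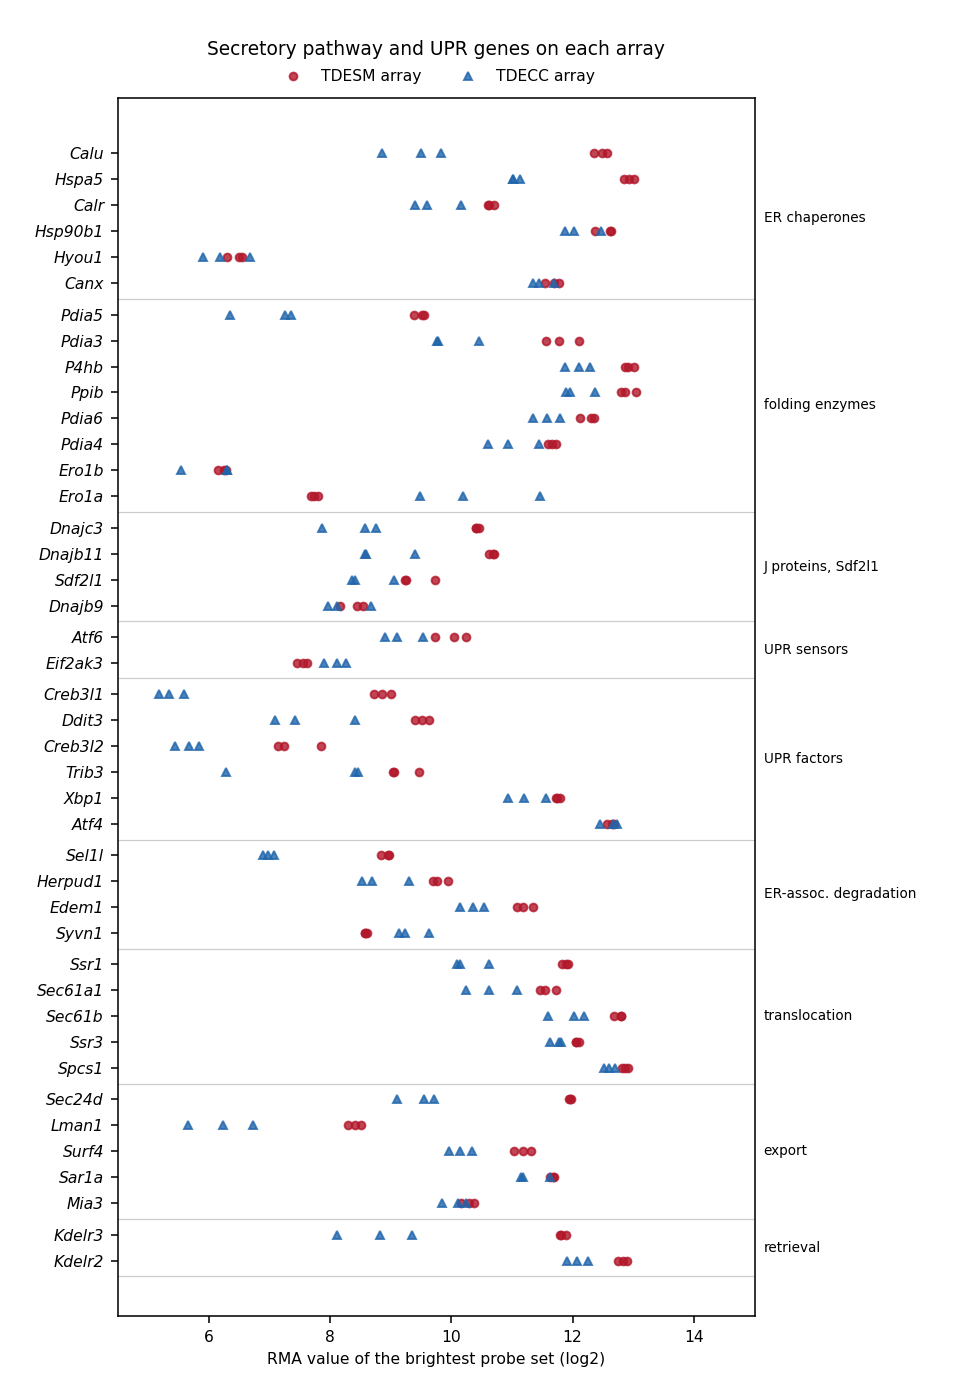
RMA values (log2, x axis) of the 42 measured genes on each of the 6 arrays, one row per gene, grouped by role; circles are TDESM arrays and triangles TDECC arrays. The circles lie to the right of all triangles in 32 rows and to the left in 3 (Ero1a, Eif2ak3 and Syvn1), relative to the median gene; values of different genes come from different probe sets and are not comparable with each other.

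**Figure D2:**
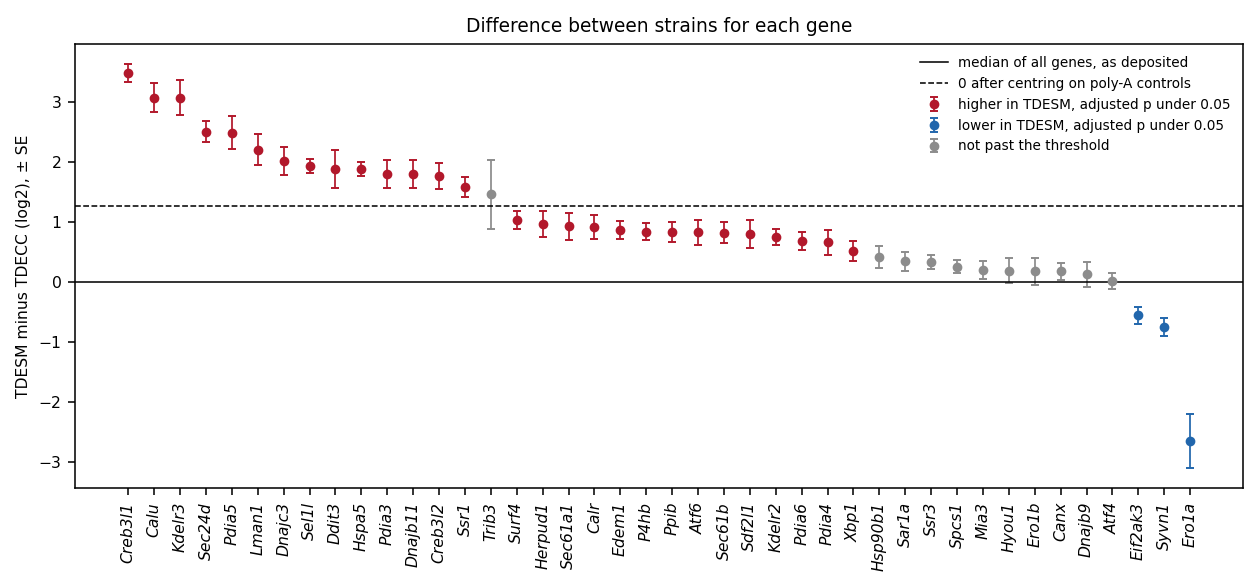
Difference TDESM minus TDECC (log2, y axis) for each gene with its standard error from limma; red points passed the threshold as higher, blue as lower, grey did not pass. The solid line is the median of all genes (0.00) and the dashed line marks where 0 falls after centring on the poly-A controls, so points between the lines turn sign there.

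Promoter sequence was set beside these values because genes of the unfolded protein response share known response elements. RefSeq windows of 300 bases (assembly GRCr8, 250 before to 50 after the annotated start) were matched by symbol for 34 of the 44 genes, 33 of them measured. The ER stress response element, ERSE, was searched on both strands as CCAAT, any 9 bases and CCACG. It was present in 7 of the 34 windows (20.6%), against 21 of 27457 genes with a window (0.0765%). ERSE is the element bound by ATF6 together with the CCAAT factor NF-Y. The sites are shown with 5 bases on either side, on the strand that reads CCAAT first, with the fixed letters of the element in capitals:
Hspa5 (chr3:38452968-38452996, plus strand): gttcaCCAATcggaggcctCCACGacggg
Dnajc3 (chr15:102432529-102432557, plus strand): caaagCCAATcagcgccaaCCACGaccca
Xbp1 (chr14:84604553-84604581, plus strand): acaggCCAATcgcagacggCCACGaccct
Calr (chr19:40213130-40213158, minus strand): ctgggCCAATcagggtcgaCCACGcgttg
Hsp90b1, site 1 (chr7:23012446-23012474, minus strand): caaacCCAATcgaaaggagCCACGcttcg
Hsp90b1, site 2 (chr7:23012342-23012370, plus strand): acccaCCAATcgtgcctcaCCACGcactc
Ero1b (chr17:92941453-92941481, minus strand): ggcggCCAATgaggcgggaCCACGagggc
Canx (chr10:35158064-35158092, minus strand): cttgtCCAATcatcacgctCCACGaagaa
Genes with the element differed in their calls. Dnajc3 (2.02), Hspa5 (1.88), Calr (0.92) and Xbp1 (0.52) were higher in TDESM, while Hsp90b1 (0.42), Ero1b (0.18) and Canx (0.18) did not pass.

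The related element ERSE-II, searched on both strands as ATTGG, any base and CCACG, occurred in 3 of the 34 windows (8.82%) and in 0.0619% of all genes with a window. Its sites, with the fixed letters in capitals, were:
Dnajb11 (chr11:91672795-91672815, minus strand): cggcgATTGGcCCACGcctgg
Herpud1 (chr19:10614816-10614836, minus strand): cgctgATTGGgCCACGttggg
Hyou1, site 1 (chr8:53602689-53602709, minus strand): tgcggATTGGcCCACGtcacg
Hyou1, site 2 (chr8:53602789-53602809, minus strand): tccccATTGGgCCACGtagaa
The element UPRE, searched likewise as TGACGTGG, occurred in the windows of Hyou1, Sec23a and Kdelr3, and in 0.681% of all genes with a window, and in 7.69% of 156 further pathway genes; in Hyou1 it overlaps site 1 of ERSE-II. It is known as a site for XBP1 and ATF6. An ATF4 element, searched as TGATGNAAN, occurred in the windows of Trib3 and Herpud1 (5.88%) and in 4.14% of all genes. All of these are matches of letters only, and windows without a match may hold elements that differ from these letters or lie farther away.

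Of the genes with the largest differences, Creb3l1, Calu, Pdia5 and Lman1 had windows with none of the 4 motifs, Kdelr3 carried UPRE, and Sec24d had no window. The windows of Kdelr3 and Creb3l1 are printed whole, as read along the gene, beside that of Hspa5 as the best known target of the response, with any fixed motif letters in capitals:
Hspa5 (chr3:38452766-38453065, plus strand): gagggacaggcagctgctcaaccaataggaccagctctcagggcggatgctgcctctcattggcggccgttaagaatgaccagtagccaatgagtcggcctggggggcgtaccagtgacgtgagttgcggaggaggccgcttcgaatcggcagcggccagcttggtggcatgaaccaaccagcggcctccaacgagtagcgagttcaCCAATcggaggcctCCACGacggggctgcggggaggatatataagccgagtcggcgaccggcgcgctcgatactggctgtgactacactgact
Kdelr3 (chr7:112959382-112959681, plus strand): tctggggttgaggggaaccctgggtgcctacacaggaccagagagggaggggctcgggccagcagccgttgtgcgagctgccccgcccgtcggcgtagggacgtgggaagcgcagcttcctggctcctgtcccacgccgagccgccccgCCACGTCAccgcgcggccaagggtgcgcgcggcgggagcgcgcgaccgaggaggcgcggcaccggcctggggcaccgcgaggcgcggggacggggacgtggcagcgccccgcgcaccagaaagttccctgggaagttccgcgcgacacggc
Creb3l1 (chr3:98449055-98449354, minus strand): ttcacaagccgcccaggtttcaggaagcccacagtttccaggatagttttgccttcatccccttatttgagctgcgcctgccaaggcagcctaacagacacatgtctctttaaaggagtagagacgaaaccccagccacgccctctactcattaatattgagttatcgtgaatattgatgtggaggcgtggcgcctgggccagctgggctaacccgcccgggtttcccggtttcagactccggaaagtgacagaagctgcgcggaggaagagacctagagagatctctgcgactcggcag
Hspa5 holds 1 exact ERSE, and Kdelr3 holds UPRE on its opposite strand.

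The 6 chaperones of the ER split into 3 (50%) that rose in TDESM and 3 that did not pass, relative to the median gene. Of all genes 22.1% were higher. Hspa5 encodes BiP, the central chaperone of the ER and the standard readout of the unfolded protein response. It read 12.85, 13.01 and 12.93 on TDESM arrays, against 11.13, 11.01 and 11.01 on TDECC arrays. Every TDESM array was above every TDECC array by far more than the spread within a strain, and the log2 difference was 1.88 (SE 0.11, limma adjusted p = 1.65e-05), a fold of 3.68. Calu encodes calumenin, a calcium-binding protein of the secretory pathway. It read 12.36, 12.57 and 12.48 in TDESM, against 9.50, 9.83 and 8.86 in TDECC, a difference of 3.07 (SE 0.24, limma adjusted p = 7.13e-05). Calr, calreticulin, which holds newly made glycoproteins, read 10.62, 10.61 and 10.70 in TDESM, against 10.16, 9.41 and 9.60 in TDECC, a difference of 0.92 (limma adjusted p = 0.00917). The TDECC arrays of Calr spread widely but stayed below TDESM.

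Hsp90b1 and Canx, by contrast, had overlapping strains. Hsp90b1 encodes GRP94, the ER member of the HSP90 family, and read 12.54 ± 0.15 in TDESM and 12.12 ± 0.31 in TDECC (SD, n = 3 each), with limma adjusted p = 0.114. Without TDECC replicate 1 its difference was 0.59 and passed (limma adjusted p = 0.0155). Canx encodes calnexin, the membrane-bound partner of calreticulin, and read 11.67 ± 0.12 in TDESM and 11.49 ± 0.18 in TDECC. Its 3 probe sets differed by 0.18, -0.08 and -0.56, the last a call as lower when probe sets were fitted (limma adjusted p = 0.0155), so the direction for Canx depends on the probe set. Hyou1, a large HSP70-type chaperone, differed by 0.19 (limma adjusted p = 0.515). A dimmer probe set of Hyou1 differed by 0.37 and passed when probe sets were fitted. Its highest array values were 4.08 in TDESM and 3.68 in TDECC, below the median of all probe sets. It is thus not shown to be above background in either strain.

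Of the 8 folding enzymes 6 (75%) rose and 1 (12.5%) fell, where 22.1% of all genes were higher and 20.6% lower. P4hb encodes protein disulfide isomerase, which is also the beta subunit of collagen prolyl hydroxylase. It read 12.86, 13.01 and 12.92 in TDESM, against 11.87, 12.10 and 12.29 in TDECC, a difference of 0.84 (SE 0.14, limma adjusted p = 0.00285). The other isomerases were all above TDECC on every TDESM array, with differences of 2.49 for Pdia5, 1.81 for Pdia3, which works with calnexin and calreticulin, 0.69 for Pdia6 and 0.66 for Pdia4. A second, dimmer probe set of Pdia3 differed by 0.96 and passed when probe sets were fitted. Pdia5 read 9.38, 9.51 and 9.55 in TDESM, against 7.26, 6.35 and 7.36 in TDECC. The Pdia4 call (limma adjusted p = 0.0424) did not survive the removal of any single array except TDECC replicate 1 (limma adjusted p up to 0.131). Ppib, cyclophilin B, a proline isomerase that helps collagen to fold, read 12.80, 12.87 and 13.04 in TDESM, against 12.37, 11.89 and 11.96 in TDECC, a difference of 0.83 (limma adjusted p = 0.00571).

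Ero1a moved the other way. It encodes the oxidase that recharges protein disulfide isomerase and is also known as a gene induced by low oxygen. It read 7.74, 7.81 and 7.69 in TDESM, against 10.20, 11.47 and 9.49 in TDECC. The TDECC arrays lay far apart from each other, yet all were above TDESM, and the difference was -2.64 (SE 0.45, limma adjusted p = 0.00303). The second probe set of Ero1a differed by -1.71. Its relative Ero1b read 6.23 ± 0.07 in TDESM and 6.05 ± 0.44 in TDECC (SD, n = 3 each) and did not pass.

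Among 4 co-chaperones and partners of BiP, 3 rose, where 22.1% of all genes were higher. Dnajc3, the J protein p58IPK, read 10.45, 10.41 and 10.40 in TDESM, against 8.76, 8.57 and 7.87 in TDECC, a difference of 2.02 (SE 0.23, limma adjusted p = 4.35e-04). Dnajb11, the J protein ERdj3, read 10.68, 10.71 and 10.62 in TDESM, against 9.41, 8.60 and 8.58 in TDECC, a difference of 1.81 (limma adjusted p = 7.81e-04). The TDESM arrays were nearly equal for both genes, and the strains did not overlap. Sdf2l1, which forms a complex with ERdj3, differed by 0.80 (limma adjusted p = 0.0313). Its call likewise needed every array except TDECC replicate 1 (limma adjusted p up to 0.108 for Sdf2l1). Dnajb9, the J protein ERdj4 and a classic XBP1 target, read 8.55, 8.45 and 8.16 in TDESM, against 7.97, 8.12 and 8.68 in TDECC, and the strains overlapped (difference 0.13, limma adjusted p = 0.678).

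The sensors went in opposite directions. Atf6, the membrane-bound factor that is cut in the Golgi under stress, read 9.74, 10.04 and 10.25 in TDESM, against 9.10, 9.53 and 8.91 in TDECC, a difference of 0.83 (SE 0.21, limma adjusted p = 0.0160). A second, dimmer probe set differed by 0.01, and the mean of both by 0.42, so the size for Atf6 rests on the probe set. The dimmer one read 5.56 in TDESM and 5.55 in TDECC, below the median of all probe sets, and is not shown to be above background. Atf6 no longer passed after removal of TDESM replicate 2, at limma adjusted p = 0.0617, or of TDESM replicate 3, at 0.0649. Eif2ak3, which encodes the kinase PERK, read 7.62, 7.56 and 7.46 in TDESM, against 8.12, 8.27 and 7.91 in TDECC. All TDESM arrays were lower, and the difference was -0.55 (SE 0.14, limma adjusted p = 0.0148). Eif2ak3 no longer passed after removal of TDESM replicate 2, at limma adjusted p = 0.0570, or of TDESM replicate 3, at 0.0585. Centred on housekeeping genes its difference was -0.42 (limma adjusted p = 0.134).

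Transcription factors of the CREB3 family showed the largest difference of the 42 genes. Creb3l1 encodes OASIS, a membrane-bound factor known in mouse bone for raising type I collagen and secretory genes. It read 8.73, 8.85 and 9.0 in TDESM, against 5.35, 5.60 and 5.19 in TDECC. The strains were apart by many times their spread, with a difference of 3.48 (SE 0.15, limma adjusted p = 3.07e-06). The value table has no detection calls, and the TDECC level of Creb3l1 is below the median of all probe sets on each array (5.80 to 5.86), so the size of this difference is uncertain. Creb3l2, or BBF2H7, known in mouse cartilage for raising Sec23a, read 7.15, 7.25 and 7.86 in TDESM, against 5.45, 5.84 and 5.68 in TDECC, a difference of 1.76 (SE 0.22, limma adjusted p = 6.04e-04). On each TDECC array Creb3l2 was likewise below the median of all probe sets (5.83, 5.86 and 5.82), so the size of its difference is uncertain too. Of the other family members, Creb3 differed by 0.88 (limma adjusted p = 0.0350), Creb3l4 by -0.05 and Creb3l3 by -0.15, of which the last 2 did not pass. Creb3l4 read 5.30 in TDESM and 5.35 in TDECC, and Creb3l3 read 5.77 and 5.92, near or below the array medians. Neither is shown to be above background in either strain.

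Xbp1, whose mRNA is spliced by IRE1 to give the active factor, read 11.74, 11.79 and 11.73 in TDESM, against 10.94, 11.20 and 11.56 in TDECC. Its difference of 0.52 (limma adjusted p = 0.0472) was close to the threshold. Removal of any single array except TDECC replicate 3 ended the call (limma adjusted p up to 0.141 for Xbp1), as did cyclic loess scaling (limma adjusted p = 0.0982) and a fit of single probe sets. Atf4, the factor whose translation PERK favours, was level between the strains. It read 12.65, 12.69 and 12.57 in TDESM, against 12.67, 12.73 and 12.45 in TDECC, a difference of 0.02 (SE 0.13, limma adjusted p = 0.920).

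Ddit3 and Trib3 lie downstream of ATF4. Ddit3, which encodes CHOP, a factor tied to cell death under long stress, read 9.64, 9.52 and 9.41 in TDESM, against 8.41, 7.42 and 7.09 in TDECC, a difference of 1.88 (SE 0.32, limma adjusted p = 0.00301). Trib3, a pseudokinase induced by ATF4 and CHOP, read 9.04, 9.05 and 9.47 in TDESM, against 8.42, 8.47 and 6.28 in TDECC. The strains did not overlap, but TDECC replicate 3 lay far below the other TDECC arrays and the difference of 1.46 (SE 0.57) did not pass (limma adjusted p = 0.0800). Without that array it was 0.74 and passed (limma adjusted p = 0.0165). Other probe sets of Trib3 differed by 1.74 and 1.59.

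**Figure D3:**
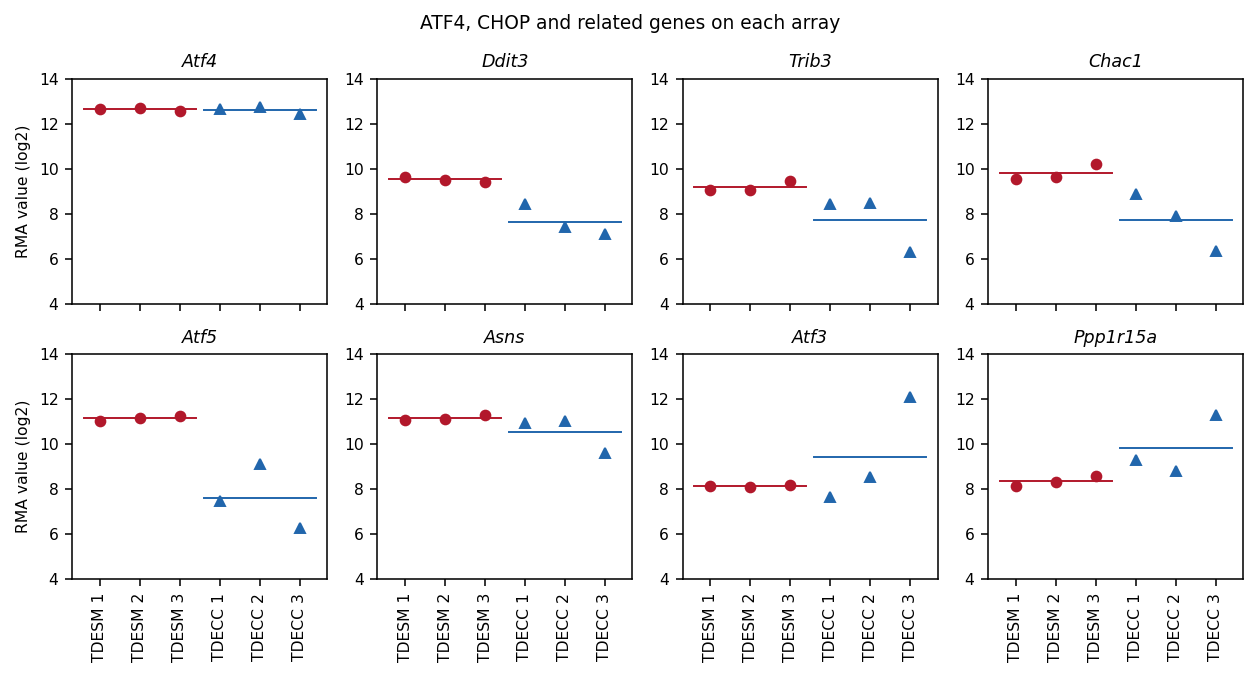
RMA values (log2, y axis) of Atf4, Ddit3, Trib3 and 5 genes of the ATF4 and CHOP list on each array (x axis), with lines at strain means; circles are TDESM and triangles TDECC. Ddit3, Trib3, Chac1, Atf5, Asns and, by a small margin, Atf4 are lowest on TDECC replicate 3, and Atf3 and Ppp1r15a highest. The genes were chosen for this plot after their values were seen.

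The degradation genes were split within a single complex. Sel1l and Syvn1 encode the partner proteins of the HRD1 ubiquitin ligase, which removes misfolded proteins from the ER. Sel1l read 8.84, 8.98 and 8.95 in TDESM, against 7.08, 6.90 and 6.98 in TDECC, a difference of 1.94 (SE 0.12, limma adjusted p = 1.55e-05). Syvn1, the ligase itself, read 8.61, 8.58 and 8.58 in TDESM, against 9.14, 9.23 and 9.64 in TDECC, a difference of -0.75 (SE 0.16, limma adjusted p = 0.00757). The arrays were apart in both, in opposite directions, and Syvn1 missed the threshold once arrays were centred on housekeeping genes (limma adjusted p = 0.0511). Herpud1, which gathers the complex and is induced by stress, differed by 0.96 (limma adjusted p = 0.00963). Edem1, which hands glycoproteins to degradation, differed by 0.86 (limma adjusted p = 0.00298), and by 1.49 and 0.56 in its other probe sets. The last had overlapping strains and did not pass when probe sets were fitted (limma adjusted p = 0.123).

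All 5 genes of entry into the ER had TDESM arrays above TDECC arrays, as had 27.3% of all genes. Of the 5, 3 passed as higher, where 22.1% of all genes did. Ssr1 encodes a subunit of the translocon-associated complex TRAP. It read 11.82, 11.92 and 11.89 in TDESM, against 10.10, 10.14 and 10.62 in TDECC, a difference of 1.59 (SE 0.17, limma adjusted p = 2.77e-04). Sec61a1, the pore of the channel, differed by 0.93 (limma adjusted p = 0.0127, or 0.0561 after removal of TDESM replicate 3), and Sec61b, its small subunit, by 0.82 (limma adjusted p = 0.00712). Other probe sets of Sec61a1 differed by 1.24 and, for the dimmest, 0.11. The dimmest read 5.11 in TDESM and 5.00 in TDECC, below the median of all probe sets. Ssr3, another TRAP subunit, differed by 0.34 (limma adjusted p = 0.0506) but passed when its probe sets were averaged (0.45, limma adjusted p = 0.0121). Spcs1, of the signal peptidase, read 12.86 ± 0.06 in TDESM and 12.60 ± 0.10 in TDECC (SD, n = 3 each) and did not pass (limma adjusted p = 0.114).

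Export from the ER was led by a single coat subunit and a single cargo receptor. Sec24d, a cargo-binding subunit of COPII, read 11.98, 11.96 and 11.94 in TDESM, against 9.55, 9.10 and 9.72 in TDECC, a difference of 2.50 (SE 0.18, limma adjusted p = 3.61e-05). Lman1, or ERGIC-53, a lectin that carries glycoproteins to the Golgi, read 8.30, 8.42 and 8.52 in TDESM, against 6.73, 5.66 and 6.23 in TDECC, a difference of 2.21 (SE 0.26, limma adjusted p = 5.14e-04). Surf4, a receptor for soluble cargo, differed by 1.03 (limma adjusted p = 0.00119). Sar1a, the GTPase that starts the coat, read 11.63, 11.67 and 11.70 in TDESM, against 11.62, 11.18 and 11.15 in TDECC. TDECC replicate 1 of Sar1a lay just below the TDESM arrays, and its difference of 0.35 did not pass with all arrays (limma adjusted p = 0.118) but did without that one (0.50, limma adjusted p = 0.0115). Mia3 encodes TANGO1, which helps load bulky procollagen into vesicles. It read 10.38, 10.29 and 10.16 in TDESM, against 10.25, 10.11 and 9.85 in TDECC, and the strains overlapped (difference 0.21, limma adjusted p = 0.307). Its second probe set differed by -1.16, so neither a direction nor a size can be given for Mia3.

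Both receptors that return escaped chaperones to the ER rose, where 22.1% of all genes were higher. Kdelr3 read 11.81, 11.79 and 11.89 in TDESM, against 9.35, 8.82 and 8.11 in TDECC. TDESM arrays were nearly equal, whereas TDECC arrays spread over more than 1 log2 unit, and the difference was 3.07 (SE 0.29, limma adjusted p = 1.81e-04). Kdelr2 read 12.75, 12.83 and 12.89 in TDESM, against 12.08, 12.25 and 11.90 in TDECC, a difference of 0.75 (SE 0.13, limma adjusted p = 0.00356). The related Kdelr1 differed by 0.99 (limma adjusted p = 0.00110).

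Sorted by the branch that is known to drive them, 7 of 9 genes of the ATF6 type were higher in TDESM and 0 lower, with a median difference of 0.80. Without TDECC replicate 2 or any single TDESM array, and with the replicate block, 4 of the 9 passed. Under these settings 2474 to 2968 of all genes were higher, against 3135 with all arrays and no block. The XBP1 type had 7 of 11 genes higher and 1 lower, Syvn1, at a median difference of 0.86. The PERK and ATF4 type had 2 of 5 genes higher and 1 lower, Ero1a, at a median difference of 0.96, where 22.1% of all genes were higher and 20.6% lower. With 5 genes, 1 lower is the background share. Herpud1 stands in the first and last of these groups, many of the genes answer to more than 1 branch, and no test compared the branches. Centred on the poly-A controls the medians were -0.47, -0.41 and -0.31.

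Another 165 measured genes of the pathway, of 172 listed in 9 groups, were counted in the same way. Of these, 91 (55.2%) were higher in TDESM and 14 (8.48%) lower, beside 22.1% and 20.6% of all genes, and their median difference was 0.63, or -0.64 centred on the poly-A controls. Genes that fold and modify procollagen were higher in 13 of 15 cases, with 0 lower and a median of 2.69, a median that stayed above 0 centred on the poly-A controls (1.42). They were led by Serpinh1, the collagen chaperone HSP47 (9.27), and P4ha3, a collagen prolyl hydroxylase subunit (7.39). Of 26 further folding genes, 21 were higher and 0 lower, led by Rcn1, a calcium-binding reticulocalbin (7.99), and Ppic, cyclophilin C (7.63). As context, the matrix cargo genes Col1a1 and Fn1 differed by 9.08 and 9.67. In TDECC, Serpinh1 (4.25), P4ha3 (4.30), Rcn1 (3.83), Ppic (3.87), Col1a1 (4.75) and Fn1 (4.01) read within the 3.07 to 5.08 of the plasma and B cell markers there. Without detection calls these genes are not shown to be above background in TDECC, so their differences, and the order among them, are not measured sizes. The same holds for Tusc3, Uggt2, Sec16b, Tmed3 and Vldlr below, which read 3.07 to 4.37 in TDECC. Copz2, named further on, read 5.35 in TDECC, under the TDECC array medians of 5.82 to 5.86, so its size is uncertain.

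The groups of general machinery were counted next, beside 22.1% of all genes higher and 20.6% lower, and no test compared the groups. In the order below, 47.6%, 37.5%, 47.4%, 65% and 44.4% were higher, and 9.52%, 6.25%, 10.5%, 5% and 11.1% lower. Of 21 further genes of the translocon, signal recognition and signal peptidase, 10 were higher, led by Sec11c, a signal peptidase subunit, and Ssr2, a TRAP subunit (1.56), and 2 lower, Sec62 (-0.71) and Spcs3 (-0.64); 1 was lower centred on housekeeping genes or without TDESM replicate 2 or 3. For glycosylation 6 of 16 were higher, led by Tusc3, a subunit of the oligosaccharyltransferase (7.84), and Uggt2 (4.26), and 1 was lower, Prkcsh (-0.37, limma adjusted p = 0.0498). The Prkcsh call was lost under housekeeping centring, without the dimmest genes, with probe sets fitted, with the robust eBayes, with the replicate block and without any single array except TDECC replicate 3. For COPII and exit sites 9 of 19 were higher, led by Sec16b (2.37) and Trappc3 (1.52), and 2 lower, Mia2, a relative of TANGO1 (-1.55), and Ergic2 (-0.62); 1 gene of the group was lower centred on housekeeping genes. Of 20 genes of COPI and retrieval 13 were higher, led by Tmed3 (6.72) and Copz2 (5.70), and 1 lower, Tmed4 (-0.73). Of 18 further degradation genes 8 were higher, led by Ube2g2 (1.68) and Selenos (1.67), and 2 lower, Edem2 (-0.66) and Os9 (-0.65). Centred on housekeeping genes 0 of these 18 were lower, and without TDESM replicate 2 or 3 the number higher was 5. Under these 2 removals 2474 and 2506 of all 14217 genes were higher, and 2131 and 2329 lower. Centred on housekeeping genes 2185 of all genes were lower, against 2930 with the deposited values.

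Regulators of the response had the smallest median difference of the 9 groups. Of 10 further regulators 3 were higher, led by Nfe2l2, the oxidative stress factor NRF2 (1.58), and 2 lower, Mbtps2, the protease that frees ATF6 (-0.61), and Wfs1 (-0.51). These shares, 30% and 20%, are near the 22.1% and 20.6% of all genes, and the median difference was 0.02. None of the 10 was lower centred on housekeeping genes or without TDESM replicate 2 or 3. Calls as lower also fell over all genes, from 2930 to 2185, 2131 and 2329 in that order. Of 20 targets of ATF4 and CHOP, 8 (40%) were higher, led by Vldlr (8.46) and Nupr1 (3.72), and 4 (20%, the share in all genes being 20.6%) lower, led by Slc7a11, a cystine transporter (-2.42), and Ddit4 (-2.36). The number lower was 1 without TDESM replicate 1 or 2, and 2 without TDESM replicate 3. Over all genes the number lower was 2218, 2131 and 2329 without TDESM replicates 1, 2 and 3. The genes named in these 3 paragraphs on the further groups passed the limma threshold.

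**Figure D4:**
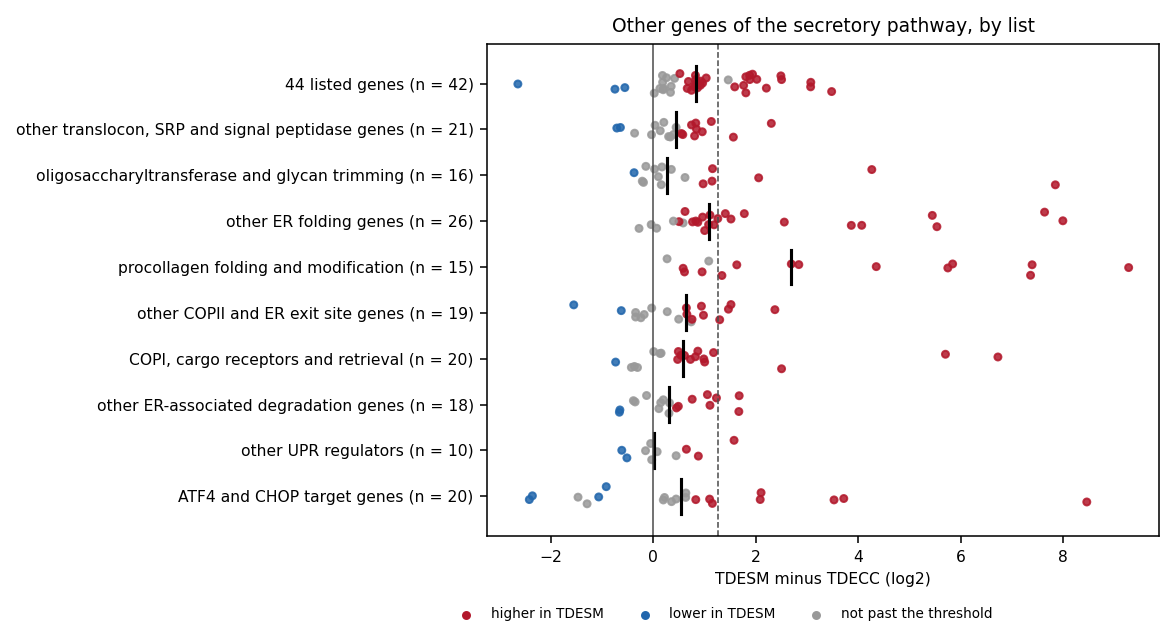
Difference TDESM minus TDECC (log2, x axis) for the listed genes and for 9 further groups of secretory pathway genes, one point per gene, coloured by limma call; black bars are medians, the solid line the median of all genes and the dashed line 0 after centring on poly-A controls. The median of the procollagen group (2.69) is the only one to the right of the dashed line.

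Relatives of some of these genes are given side by side. The pairs beyond the 44 genes were picked after their values were seen, so they say nothing of how common unequal differences are. Kdelr3 differed by 3.07 against 0.75 for Kdelr2, and Sec24d by 2.50 against 0.76 for Sec24c and 0.50 for Sec24b, of which the last did not pass. Sar1b differed by 0.65 (limma adjusted p = 0.00474) and Sar1a by 0.35. Ppic, which read 11.50 ± 0.23 in TDESM and 3.87 ± 0.05 in TDECC, differed by 7.63, and its relative Ppib by 0.83. Copz2 read 11.05 ± 0.12 in TDESM and 5.35 ± 0.22 in TDECC, while Copz1, the other zeta subunit of COPI, read 10.88 and 10.87. Tusc3 read 10.91 ± 0.02 in TDESM and 3.07 ± 0.22 in TDECC, while Magt1, the subunit it can stand in for, differed by 0.62 and did not pass. Uggt2 read 7.57 ± 0.19 in TDESM and 3.31 ± 0.28 in TDECC (SD, n = 3 each throughout), while Uggt1, the main folding sensor of glycoproteins, differed by 0.03. Ppic, Tusc3 and Uggt2 are among the genes not shown to be above background in TDECC. Copz2 read below the median of all probe sets on each TDECC array (5.82 to 5.86), so the size of its difference is uncertain. Differences between relatives were not tested.

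**Figure D5:**
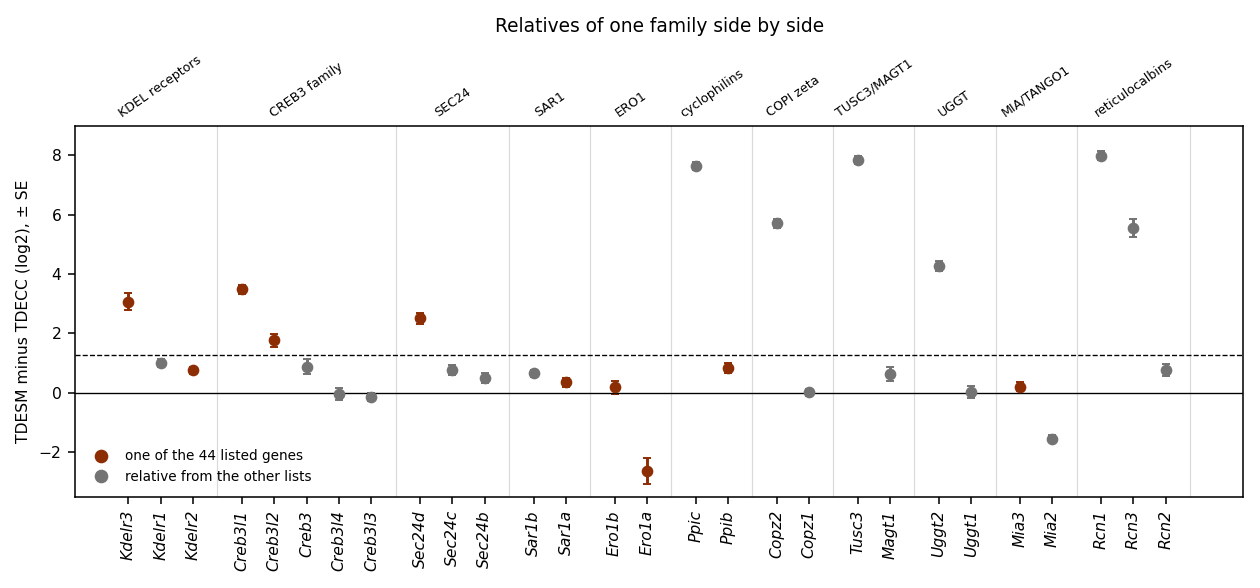
Difference TDESM minus TDECC (log2, y axis) with its standard error from limma for relatives of 11 families; brown points are among the 44 genes and grey points are relatives. The solid line is the median of all genes and the dashed line 0 after centring on poly-A controls; Ppic, Tusc3, Copz2 and Uggt2 stand above the dashed line and their relatives Ppib, Magt1, Copz1 and Uggt1 below it.

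The TDECC arrays were less alike than the TDESM arrays for these genes. The standard deviation over 3 arrays was larger in TDECC for 40 of the 42 genes (95.2%), beside 77.2% of all genes, with medians of 0.08 in TDESM and 0.31 in TDECC, against 0.12 and 0.24 over all genes. Among the TDECC arrays, replicate 1 was the highest for 20 of the 42 genes (47.6%, against 39.8% of all genes) and replicate 3 the lowest for 20 (47.6%, against 34.2%). Ddit3, Kdelr3 and Calr were among those highest on replicate 1. Of the 20 further ATF4 and CHOP targets, 10 were lowest on TDECC replicate 3 (50%, against 34.2% of all genes). Chac1, a glutathione-degrading enzyme induced by ATF4, read 9.54, 9.64 and 10.19 in TDESM, against 8.86, 7.90 and 6.35 in TDECC. Atf3, a stress factor, read 8.16, 8.10 and 8.21 in TDESM, against 7.66, 8.56 and 12.12 in TDECC. TDECC replicate 3 was thus the lowest TDECC array for Chac1 and the highest for Atf3. Atf4 was also lowest on it, by a small margin (12.45). Both genes were picked after their values were seen.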

How the data were processed

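Total RNA of 6 samples was hybridised to Affymetrix rat arrays. The deposited log2 values were made with RMA, per the submitters' processing notes; which version was used is not given. The value table has 31099 probe sets, of which 57 are controls. Of the others, 20826 have 1 symbol in the platform annotation and were used, 436 have several and the rest are not listed there. RMA values have no counts behind them, so the number of arrays limits the precision.

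The brightest probe set by mean over all arrays stood for each of 14217 genes. Strains were compared with limma 3.58.1 in R 4.3.3 (lmFit and eBayes, two-sided, TDESM minus TDECC, 3 arrays each), p-values being adjusted by Benjamini-Hochberg across the 14217 genes and called at 0.05; the procedure was tested on simulated data. Adjusted p-values in the text are from this model. All 42 measured genes of the 44 were described. From each further group up to 2 genes each way were named, those with the largest difference among genes past the threshold. Relatives of the 44 genes and cargo genes were named besides. The genes and groups were chosen with earlier results of these data known. Group counts are descriptions, not tests.

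Replicate numbers are shared between strains. Same-numbered arrays deviated from their strain means with correlations of -0.07, 0.02 and -0.14, so the numbers were not taken as pairs. No 2 arrays were duplicates: at most 5.74% of probe sets had identical values. Alternatives were cyclic loess, centring on 15 housekeeping genes or on 24 poly-A control probe sets, leaving out the dimmest 33.3% of genes, averaging or fitting probe sets, a robust eBayes with a trend, a replicate block, a minimum log2 difference of 1, and leaving out each array. Promoter windows are from RefSeq (GRCr8).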

Additional observations from a re-analysis of the deposited data

How the results depend on the processing

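Of the 31 calls among the listed genes, 24 held under 13 alternatives, which leave aside the poly-A centring and the minimum difference; those of Pdia4, Sdf2l1, Eif2ak3, Atf6, Xbp1, Syvn1 and Sec61a1 did not hold in all. Scaling mattered most. Centred on housekeeping genes, the median of all genes was 0.14, 1 listed gene was lower in TDESM, with a median difference of 0.97, and 7 further pathway genes were lower, with a median of 0.77. Of all genes 2185 were lower there, against 2930 with the deposited values. Centred on poly-A controls, 905 of all genes were higher in TDESM and 11282 lower (median -1.27), 7 listed genes were higher and 14 lower (median -0.44), and 28 further pathway genes were higher and 78 lower (median -0.64). On that scale the following turned sign: Hsp90b1 (-0.86), Hyou1 (-1.08), Calr (-0.35), Canx (-1.09), P4hb (-0.43), Pdia4 (-0.61), Pdia6 (-0.59), Ero1b (-1.09), Ppib (-0.44), Dnajb9 (-1.14), Sdf2l1 (-0.47), Atf6 (-0.44), Xbp1 (-0.75), Atf4 (-1.25), Herpud1 (-0.31), Edem1 (-0.41), Sec61a1 (-0.34), Sec61b (-0.45), Ssr3 (-0.94), Spcs1 (-1.01), Sar1a (-0.92), Mia3 (-1.07), Surf4 (-0.24) and Kdelr2 (-0.53). The cause of the shift in the controls was not tested. Fitted as probe sets, 5559 were higher and 5911 lower, since more features were tested. With a minimum log2 difference of 1, 1908 of all genes were higher and 1717 lower, 15 listed genes were higher and 1 lower, and 55 further pathway genes were higher and 4 lower. Leaving out single arrays gave 7 to 16 further pathway genes lower, with 7 without TDESM replicate 2, and 23 to 29 listed genes higher. Over all genes these removals gave 2131 to 3035 lower and 2474 to 3425 higher. The replicate block left 25 listed genes higher and 3 lower; the calls of Pdia4 (limma adjusted p = 0.0681), Sdf2l1 (0.0545) and Xbp1 (0.0789) were lost with it, and no other call among the listed genes changed.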
